A study of Mus musculus with 30 samples.

Results

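The comparison described here set the abdominal aorta of mice given angiotensin II together with gastrodin (AngII+GAS, 5 libraries) against that of mice given saline (Control, 5 libraries), 10 of the 30 libraries of the series. It asks what stays different from saline when gastrodin accompanies the infusion. Libraries were chosen by the group label alone. All mice were wild-type C57BL/6 and were treated for 28 days. Per the labels, the AngII+GAS mice received angiotensin II at 500 ng/kg/min and gastrodin at 5 mg/kg per day, and the Control mice received saline only. The 5 libraries of mice given angiotensin II alone at the same dose (AngII) are set beside them to show where a gene lay without gastrodin. The labels used here give no age or sex, and do not say whether a library came from 1 mouse or from a pool.

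Angiotensin II is a peptide hormone that acts mainly through the type 1 angiotensin receptor on smooth muscle. It constricts arteries, and prolonged infusion in rodents is a standard model of hypertension in which the vessel wall lays down extracellular matrix. Gastrodin is a phenolic glucoside from the orchid Gastrodia elata. The aorta holds smooth muscle cells, an endothelial lining and an adventitia of fibroblasts, and fat, nerves and other tissue around the vessel can enter a dissected sample. In bulk RNA, fewer cells of a type and less RNA per cell cannot be told apart.

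Values are FPKM (fragments per kilobase of transcript and per megareads of depth), summed per gene over the annotated transcripts listed for both groups, and means are given ± SD over 5 libraries. Differences are on the log2(FPKM + 1) scale with their standard error (SE), from limma, and a call means a Benjamini-Hochberg adjusted p under 0.05 over all 11744 genes tested. Depth was 73.2 to 79.3 megareads per library, so that 3 reads in 2 kb of transcript were worth 0.0189 to 0.0205 FPKM. Such floors cover counting error only. The labels do not say that libraries came from separate cages or batches, so p-values measure the spread between these libraries, which may be in part technical. Markers of the vessel wall were present: all 25 smooth muscle genes and all 22 endothelial genes of the marker lists were tested. The summed level of the smooth muscle list was 7165 to 12051 FPKM in Control and 5026 to 16296 FPKM in AngII+GAS.

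Several libraries stood apart. The median absolute log2 difference between 2 libraries, taken over genes, was 0.244 within Control and 0.364 within AngII+GAS (medians over 10 pairs each), against 0.300 between the groups (25 pairs). Each of the 5 AngII+GAS libraries was on average closer to the Control libraries than to its own group, and the means were 0.406 to its own group and 0.335 to Control for AngII+GAS 5. Relative weights that limma derives from how well each library follows its group were lowest in AngII+GAS 5 (0.332) and AngII+GAS 2 (0.403) and highest in AngII+GAS 3 (2.04). Skeletal muscle genes were high in Control 1 and Control 2, where the mean log2 level of the list was 6.37 and 7.63 against 1.83 to 2.79 in the other Control libraries. Results that rest on these libraries are given with and without them.

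Few genes stayed apart from saline beyond this spread. Of 11744 genes, 1 was called higher in AngII+GAS (0.00851% of the genes tested) and 1 was called lower (0.00851%). The lower gene was Hspd1, the mitochondrial chaperonin, and the higher gene was Slc30a5, a zinc transporter. Without adjustment, 559 genes (4.76%) had a p under 0.05, of which 171 were higher (1.46%) and 388 lower (3.3%). Whatever the p, 38.3% of the genes tested were higher and 61.7% lower, the shares to read beside the list counts below. The ranges of the 2 groups did not overlap in 23 genes that were higher in AngII+GAS (0.196%) and in 100 that were lower (0.851%). In the fit over 15 libraries, limma called 0 genes for AngII against Control (0.0%, with 1418 genes or 12.1% at an unadjusted p under 0.05) and 0 for AngII+GAS against AngII (0.0%, with 1838 genes or 15.7%). Both used the same 11744 genes, filtered on Control and AngII+GAS libraries, so genes expressed only in AngII could not be called. These comparisons share libraries and are given side by side only.

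**Figure D1:**
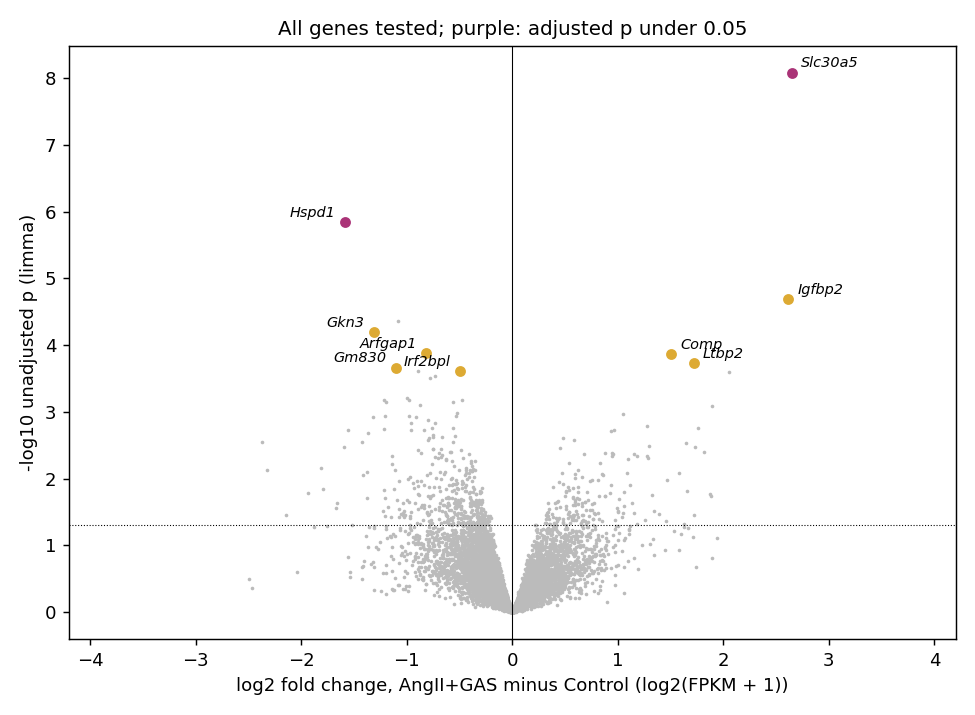
Each point is 1 of 11744 genes, with the log2 fold change of AngII+GAS against Control on the x axis and the negative log10 of the unadjusted limma p on the y axis. The dotted line marks an unadjusted p of 0.05. Slc30a5 and Hspd1, in purple, were called, and the 7 genes in yellow are among the next ones in each direction, which were not called.

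Hspd1 encodes the chaperonin that folds proteins inside mitochondria, together with its smaller partner Hspe1. The 2 genes lie head to head on chromosome 1 of mouse build mm10, with Hspd1 on the minus strand at 55077835 to 55088243, and share a bidirectional promoter. Their promoter is shown because Hspd1 was called and Hspe1 was not, although the difference between them was not tested. The window below (RefSeq, GRCm38.p6, chr1:55087883-55088182, minus strand, 5′ to 3′) lies inside these gene bounds and overlaps the Hspe1 window by 285 of 300 bases. RefSeq gives Hspd1 a second window, at chr1:55088194-55088493, which spans the 5′ end of the gene as given above, overlaps the Hspe1 window by 4 bases and held 0 matches of the patterns below. That of Hsph1, a cytosolic heat shock protein (chr5:149636287-149636586, minus strand), is shown for comparison. Capitals mark GAANNTTC or TTCNNGAA, pairs of the 3-letter unit that heat shock factor is known to bind. Each pattern reads the same on both strands, and neighbouring matches may overlap.
Hspd1: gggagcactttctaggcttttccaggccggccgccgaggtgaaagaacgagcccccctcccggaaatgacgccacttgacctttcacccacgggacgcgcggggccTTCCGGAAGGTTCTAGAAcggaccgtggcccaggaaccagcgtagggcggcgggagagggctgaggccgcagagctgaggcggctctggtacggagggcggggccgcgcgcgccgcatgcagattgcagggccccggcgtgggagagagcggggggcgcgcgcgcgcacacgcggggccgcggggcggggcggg
Hsph1: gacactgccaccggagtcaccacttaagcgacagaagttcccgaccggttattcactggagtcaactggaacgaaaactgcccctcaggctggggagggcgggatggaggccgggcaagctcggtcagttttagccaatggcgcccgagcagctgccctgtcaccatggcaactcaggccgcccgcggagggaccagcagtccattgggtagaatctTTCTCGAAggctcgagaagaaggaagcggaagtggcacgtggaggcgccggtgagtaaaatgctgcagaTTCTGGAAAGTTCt
Each of the printed windows held 1 match of GAANNTTC and 2 of TTCNNGAA. Among all 32851 windows of this length, 7.86% held the first pattern, 8.52% the second, 15.1% either and 1.32% both. Of the 24 tested genes of the chaperone and heat shock list, 18 had a window. Of these, 11 held a match of either pattern in at least 1 window, which counts genes whereas the shares above count windows. A match is a description of the letters and not of binding.

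Hspd1 stood at 119, 122, 79.2, 115 and 86.5 FPKM in the Control libraries, and at 36.6, 26.0, 32.1, 37.5 and 36.5 FPKM in the AngII+GAS libraries. In AngII alone it was 52.2, 43.0, 51.9, 56.5 and 45.9 FPKM. All 5 AngII+GAS libraries lay below all 5 AngII libraries, which in turn lay below all 5 Control libraries. The mean fell 3.09-fold from 104 ± 19.8 in Control to 33.7 ± 4.83 in AngII+GAS, a log2 fold change of -1.59 (SE 0.16, adjusted p = 0.00854). For AngII against Control the log2 fold change was -1.03 (adjusted p = 0.0564) and for AngII+GAS against AngII -0.56 (adjusted p = 0.22), neither past the threshold. The transcript Hspd1-201 carried nearly all of the Hspd1 level, with 76.4 to 121 FPKM in Control and 23.9 to 34.5 FPKM in AngII+GAS. Over transcripts listed for all 6 groups, Hspd1 was 72.9 ± 24.1 FPKM with angiotensin II and ethoxysanguinarine, 89.1 ± 38.8 with baicalin and 43.0 ± 17.3 with valsartan. The AngII+GAS mean of 32.6 ± 4.34 was the lowest of the 6 on that sum, though its range of 25.7 to 36.5 FPKM overlapped that of the valsartan group (26.9 to 67.0). The call was lost without AngII+GAS 3 (log2 fold change -1.58, adjusted p = 0.0532), without Control 1 and 2 together (-1.44, adjusted p = 0.146) and with skeletal muscle and neuron scores as terms (-1.53, adjusted p = 0.11), while the direction stayed the same in these fits.

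As a list, chaperone and heat shock genes had a median near that of all genes. Of 24 tested genes, 9 were higher and 15 lower in AngII+GAS than in Control (62.5% lower, beside 61.7% of all genes tested). The median log2 fold change was -0.09, beside -0.05 over all genes tested. Only Hspd1 was called. At an unadjusted p under 0.05 in limma, 4 of the 24 were lower and 0 higher, beside 3.3% and 1.46% of all genes tested. Hspe1, the partner across the shared promoter, had 102 ± 12.4 FPKM in Control, 80.0 ± 4.46 in AngII and 94.6 ± 34.3 in AngII+GAS (log2 fold change -0.17, SE 0.23, adjusted p = 0.993). Hspa9, the mitochondrial Hsp70 chaperone, had 233 ± 41.0 and 219 ± 81.8 FPKM in Control and AngII+GAS. Lonp1 and Clpp, mitochondrial proteases of protein quality control, differed by -0.10 (SE 0.21) and 0.04 (SE 0.18) on the log2 scale. Among the cytosolic members, chosen after their values were seen, Hsp90aa1 went from 111 ± 18.6 to 60.7 ± 13.6 FPKM (log2 fold change -0.87, SE 0.19, adjusted p = 0.432) and Hsp90ab1 from 412 ± 26.1 to 316 ± 15.7 FPKM (-0.38, SE 0.11, adjusted p = 0.777). Their Control and AngII+GAS ranges did not overlap, yet neither passed the test over all genes. Hsph1 was 19.2 ± 13.0 FPKM in Control and 29.4 ± 9.54 in AngII+GAS (0.79, SE 0.42, adjusted p = 0.993).

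Slc30a5 encodes a transporter that loads zinc into the secretory pathway (chromosome 13, 100802648 to 100833427, minus strand, mm10). Summed over its 2 listed transcripts it was 0.898, 0.927, 1.40, 1.59 and 0.946 FPKM in Control and 14.8, 9.97, 9.91, 13.6 and 14.7 FPKM in AngII+GAS. The AngII libraries were split, with 15.9, 9.20, 1.98, 1.31 and 14.6 FPKM. The sum rose 10.9-fold from Control to AngII+GAS (log2 fold change 2.65, SE 0.16, adjusted p = 9.84e-05), and the ranges did not overlap. With the AngII libraries in the same fit the call was lost (adjusted p = 0.14), as it was over all 30 libraries (adjusted p = 0.301).

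The transcripts behind this sum differed between libraries. Slc30a5-205 was listed at 0 in all 5 Control libraries and in AngII+GAS 4, whereas the 4 remaining AngII+GAS libraries had 6.93 to 8.51 FPKM. In AngII+GAS 4 the transcript Slc30a5-201 carried 13.6 FPKM instead. The files also hold transcripts that the authors assembled from the reads, for which they give neither gene nor position. In a search of all 12044 such transcripts, made after these values were seen, 1 mirrored Slc30a5: it had 12.3 ± 1.40 FPKM in Control, 7.56 ± 7.99 in AngII and 1.34 ± 1.78 in AngII+GAS. Added to the gene it gave 13.5 ± 1.54, 16.1 ± 2.26 and 13.9 ± 1.07 FPKM in the 3 groups, and lowered the SD over 15 libraries from 6.25 to 1.98, against 4.44 with the next best transcript. The transcript was picked because it levelled the sum over these libraries, so the small differences between the group sums follow from that choice and are no test. Whether the assembled transcript shares reads with Slc30a5 was not tested. The same search for Hspd1 lowered the SD from 33.2 to 26.1, beside 26.6 with the next best. The transcript it picked had 48.2 ± 8.87 FPKM in Control, 86.0 ± 12.8 in AngII and 79.2 ± 29.6 in AngII+GAS, and was thus higher in the 2 groups in which Hspd1 was lower than in Control. With it the sum was 152 ± 19.2 FPKM in Control, 136 ± 14.0 in AngII and 113 ± 29.0 in AngII+GAS, and the ranges of Control (131 to 179) and AngII+GAS (89.9 to 161) overlapped. Whether that transcript shares reads with Hspd1 was not tested.

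**Figure D2:**
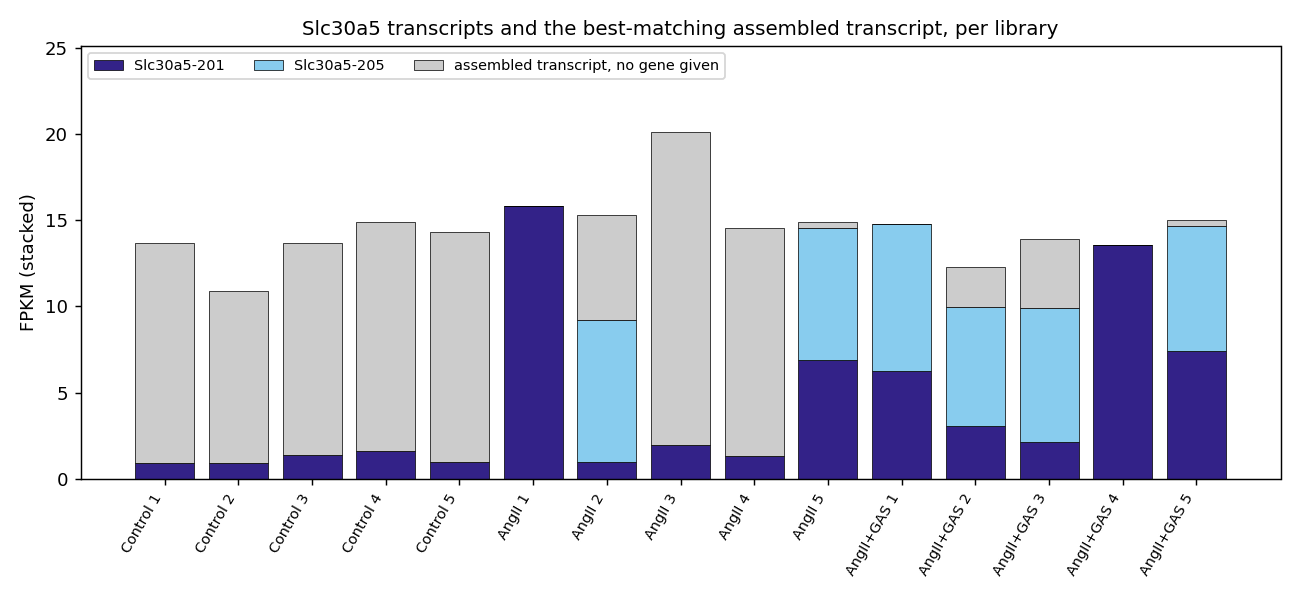
Stacked FPKM of the 2 annotated Slc30a5 transcripts and of the mirroring assembled transcript in each of 15 libraries. The assembled transcript makes up most of the stack in all 5 Control libraries and little of it in the AngII+GAS libraries, while the height of the stack is 10.9 to 14.9 FPKM in Control and 12.3 to 15.01 FPKM in AngII+GAS.

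Among the next genes with higher values, Igfbp2, Comp and Ltbp2 were high in both AngII and AngII+GAS. None of these 3 passed the test over all genes. Igfbp2, a carrier that binds insulin-like growth factors (chromosome 1, 72824503 to 72852474), was 12.6, 5.67, 11.9, 6.25 and 11.6 FPKM in Control and 35.8, 81.3, 46.0, 49.9 and 127 FPKM in AngII+GAS. Every AngII+GAS library was above every Control library, and the means of 9.62 ± 3.37 and 68.1 ± 37.2 differed 7.07-fold (log2 fold change 2.62, SE 0.35, adjusted p = 0.0797). The AngII mean was 71.8 ± 51.1 FPKM, and AngII+GAS differed from AngII by 0.07 on the log2 scale (adjusted p = 0.953). Igfbp2 passed the threshold without AngII+GAS 5 (log2 fold change 2.35, adjusted p = 0.0475) and with library weights (2.32, adjusted p = 0.0302).

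Comp, a pentameric matrix glycoprotein of the thrombospondin family, was 12.4, 9.73, 13.4, 17.4 and 11.5 FPKM in Control and 49.8, 44.9, 25.0, 24.5 and 55.5 FPKM in AngII+GAS. The groups did not overlap, and the log2 fold change was 1.5 (SE 0.26, adjusted p = 0.231), with 31.6 ± 14.9 FPKM in AngII. Ltbp2, a fibrillin-associated protein of the latent TGF-beta binding family, went from 8.36 ± 4.56 FPKM in Control to 28.0 ± 7.26 in AngII+GAS, beside 26.6 ± 16.4 in AngII (1.72, SE 0.30, adjusted p = 0.25). It passed the threshold without Control 4 (1.96, adjusted p = 0.0439), the Control library with the highest value, 15.9 FPKM.

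**Figure D3:**
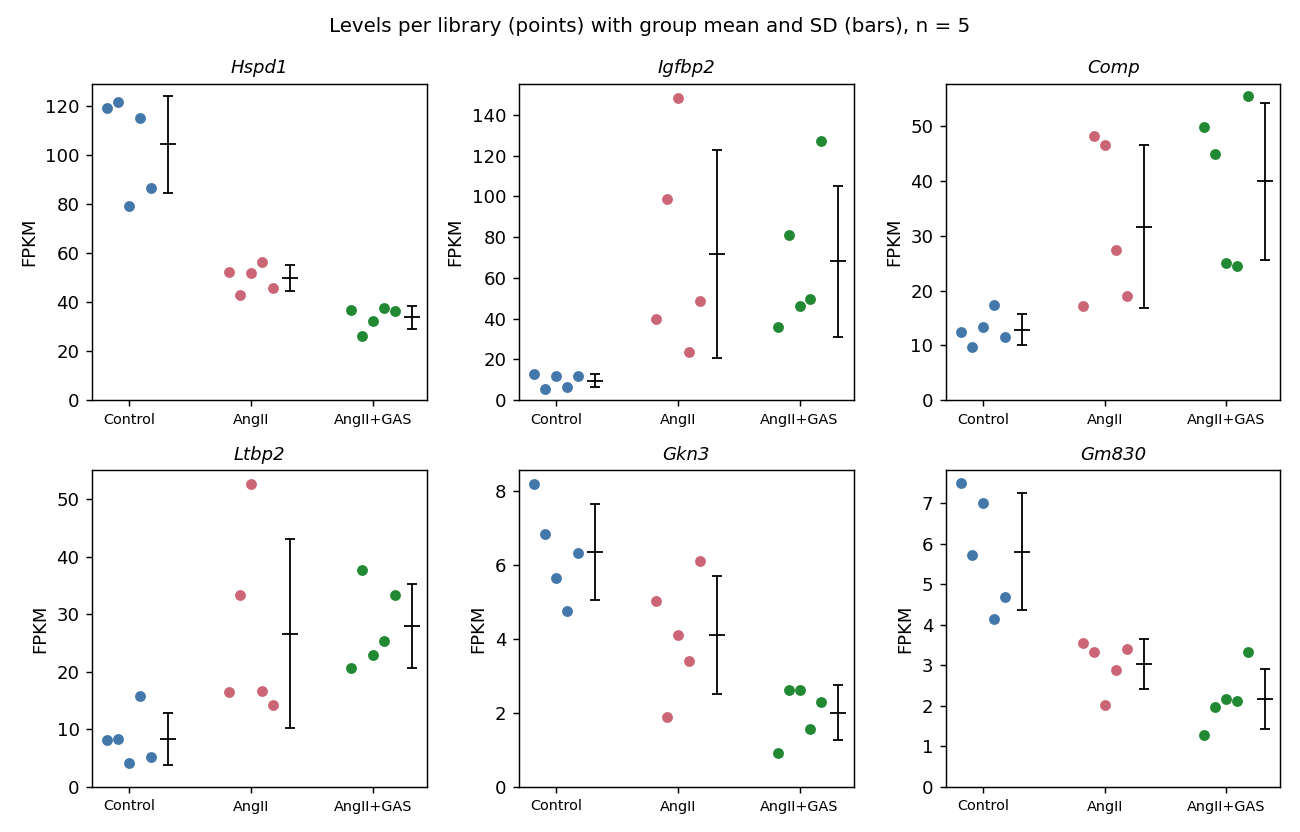
FPKM of 6 genes in each library of Control, AngII and AngII+GAS, with the group mean and SD beside the points. In Hspd1, Gkn3 and Gm830 all 5 AngII+GAS libraries lie below all 5 Control libraries, and in Igfbp2, Comp and Ltbp2 they all lie above them.

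Among the genes with lower values, Gkn3, a secreted protein of the gastrokine family, was 8.19, 6.84, 5.65, 4.75 and 6.33 FPKM in Control and 0.927, 2.62, 2.61, 1.57 and 2.30 FPKM in AngII+GAS. The ranges did not overlap and the log2 fold change was -1.31 (SE 0.20, adjusted p = 0.15), with 4.10 ± 1.61 FPKM in AngII. Gm830, a predicted gene, went from 5.81 ± 1.45 to 2.18 ± 0.74 FPKM, with 3.04 ± 0.62 in AngII (-1.10, SE 0.20, adjusted p = 0.25). These 2 genes, like Hspd1, had an AngII mean between those of the other groups.

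In another set of genes the AngII mean was close to that of Control, and the AngII+GAS mean was lower. Arfgap1, which switches off the small GTPase Arf1 at the Golgi, was 5.18, 4.98, 5.32, 5.83 and 4.88 FPKM in Control, 5.44 ± 0.84 in AngII, and 3.37, 2.38, 1.75, 3.01 and 2.37 FPKM in AngII+GAS. All AngII+GAS libraries were below all Control libraries (log2 fold change -0.82, SE 0.14, adjusted p = 0.231). Irf2bpl, a nuclear protein related to a binding partner of interferon regulatory factor 2, was 15.4 to 17.3 FPKM in Control and 10.2 to 12.6 FPKM in AngII+GAS (-0.50, SE 0.09, adjusted p = 0.25), with 16.1 ± 2.89 in AngII. In AngII 4 it was 11.8 FPKM, within the AngII+GAS range. Flna, the actin crosslinker filamin A, was 244, 386, 221, 204 and 245 FPKM in Control and 172, 158, 168, 128 and 167 FPKM in AngII+GAS, again without overlap (-0.68, SE 0.18, adjusted p = 0.669). For AngII+GAS against AngII the adjusted p was 0.136 for Arfgap1, 0.22 for Irf2bpl and 0.22 for Flna, so none of these differences passed the test either.

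**Figure D4:**
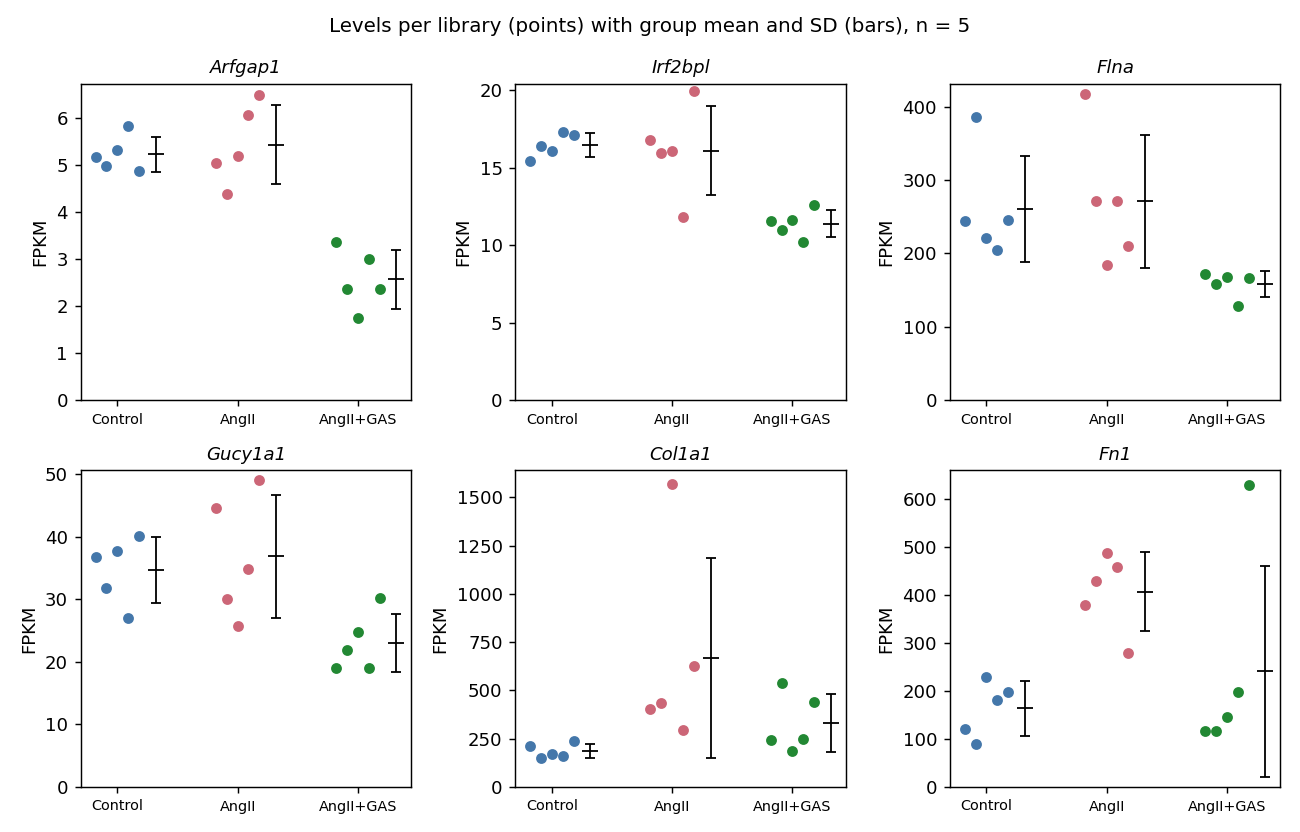
FPKM of 6 genes in each library of Control, AngII and AngII+GAS, with the group mean and SD beside the points. The AngII+GAS libraries lie below Control in Arfgap1, Irf2bpl and Flna and overlap it in Gucy1a1, Col1a1 and Fn1, and Fn1 has 1 AngII+GAS library at 629.9 FPKM.

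No extracellular matrix gene was called, and the list medians moved with AngII+GAS 2 and 5. In the list of fibrillar collagens and their assembly factors, 17 of 21 tested genes were higher in AngII+GAS than in Control and 4 lower. That was 81% higher, beside 38.3% of all genes tested. The median log2 fold change was 0.17, beside -0.05 over all genes tested, and 0 genes were called by limma. At an unadjusted p under 0.05, 2 of the 21 were higher and 0 lower, beside 1.46% and 3.3% of all genes tested. For AngII against Control the median of the same list was 0.68, beside 0.09 over all genes. The mean log2 level of the list was 4.56 to 4.61 in AngII+GAS 1, 3 and 4, within the Control range of 4.46 to 4.93, and 5.14 and 5.63 in AngII+GAS 2 and 5. Without AngII+GAS 5 the median was -0.02, and without AngII+GAS 2 and 5 it was -0.11. Col1a1, the main chain of type I collagen, was 211, 149, 171, 159 and 237 FPKM in Control and 244, 537, 186, 245 and 441 FPKM in AngII+GAS. These ranges overlapped (log2 fold change 0.74, SE 0.29, adjusted p = 0.993), and the AngII mean was 666 ± 519 FPKM. Col3a1, of type III collagen, was 230 ± 52.6 FPKM in Control, 801 ± 758 in AngII and 339 ± 155 in AngII+GAS (0.48, SE 0.29, adjusted p = 0.993). In both collagens AngII+GAS 2 and AngII+GAS 5 were the highest of their group.

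Fn1, the adhesive matrix glycoprotein fibronectin, was 116, 116, 146 and 197 FPKM in 4 AngII+GAS libraries and 629.9 FPKM in AngII+GAS 5, against 89.6 to 229 FPKM in Control and 279 to 488 FPKM in AngII. Its log2 fold change of 0.29 (SE 0.47, adjusted p = 0.993) turned to -0.14 without AngII+GAS 5. Matricellular proteins and proteoglycans had a median of 0.36 (19 of 23 higher) beside 0.64 for AngII against Control, and matrix proteases and their inhibitors 0.15 (19 of 23 higher) beside 0.52. Ogn, the proteoglycan osteoglycin, and Adamts5, a protease that cleaves large proteoglycans, were lower, at 277 ± 91.4 against 157 ± 35.2 FPKM and 9.92 ± 1.64 against 7.11 ± 1.06 FPKM, with adjusted p of 0.823 and 0.873. Basement membrane genes had a median of 0.16 and elastic fibre genes 0.03, beside 0.34 and 0.34 for AngII against Control. Genes of TGF-beta signalling were even, with 11 of 22 higher and a median of 0.03. Growth factor and Wnt genes, the list that holds Igfbp2, had a median of 0.14 beside 0.50. Without AngII+GAS 2 and 5 the medians were 0.05 for matricellular proteins, -0.08 for proteases, -0.06 for basement membrane, -0.22 for elastic fibre, -0.13 for TGF-beta signalling and 0.07 for growth factors. Without AngII+GAS 5 alone, basement membrane was -0.0078, elastic fibre -0.11 and TGF-beta signalling -0.10. In none of these 7 lists, with 13 to 23 tested genes each, was a gene called by limma. In each list 1 to 4 genes had an unadjusted p under 0.05, beside 4.76% of all genes tested. Growth factors and Wnt had 3 of 22 higher and 1 lower, and TGF-beta signalling had 0 of 22 higher and 1 lower.

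**Figure D5:**
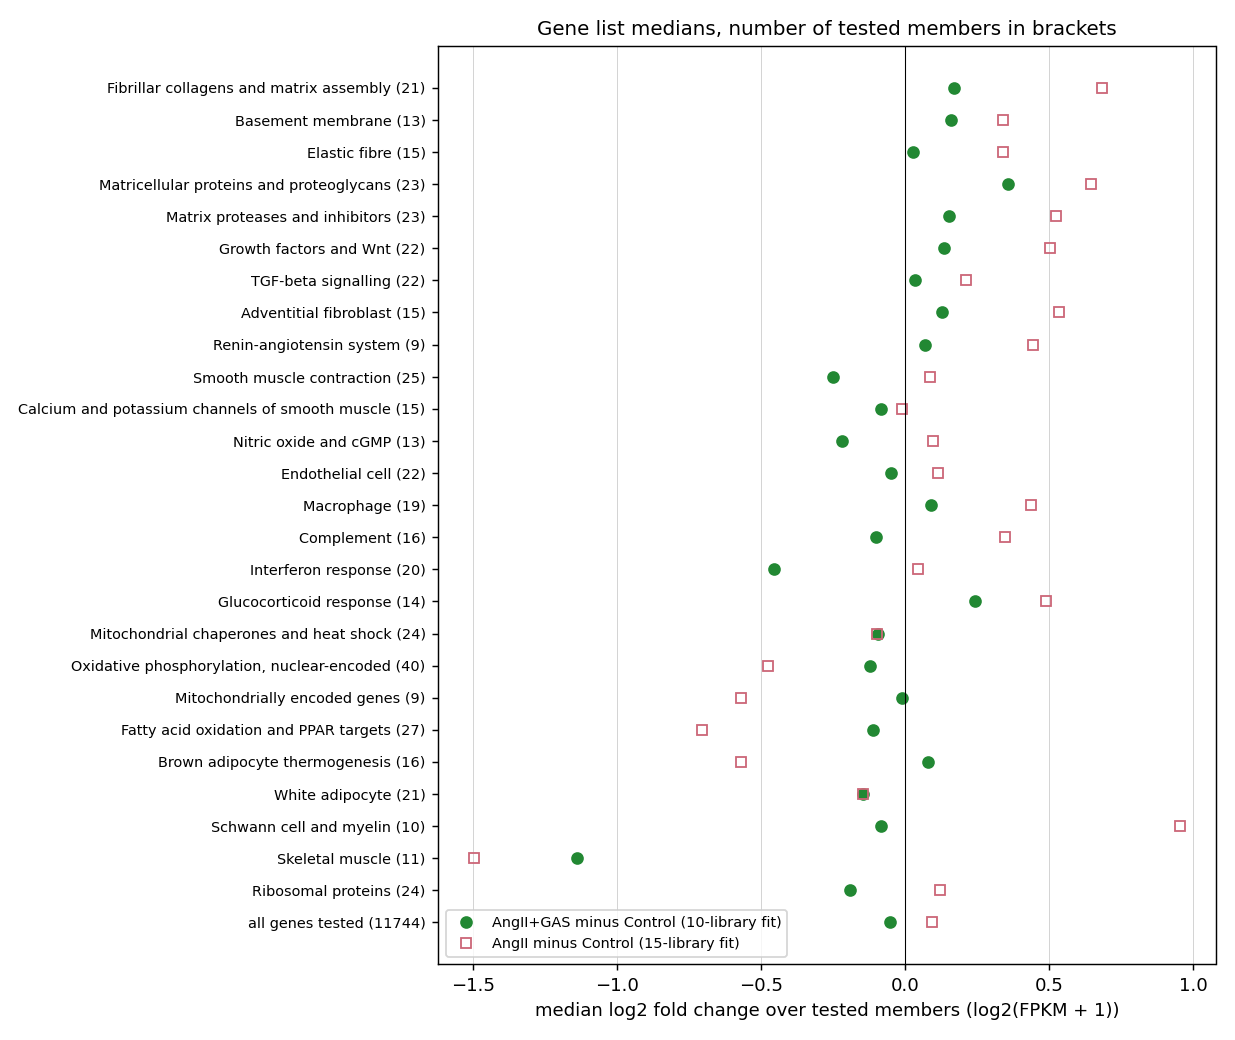
Median log2 fold change over the tested members of 26 of the 42 gene lists and of all genes, for AngII+GAS against Control (circles) and AngII against Control (squares), which share the Control libraries. Matrix lists lie further to the right for AngII, lists of mitochondria, fatty acid oxidation and brown fat further to the left, and the interferon list lies at -0.46 for AngII+GAS and at 0.04 for AngII.

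The system that the infusion acts on showed no called gene. Of 9 tested genes of the renin-angiotensin system 5 were higher and 4 lower, with a median of 0.07 beside 0.45 for AngII against Control. Agtr1a, the type 1 receptor, was 3.36 ± 0.42 FPKM in Control, 7.87 ± 5.18 in AngII and 3.94 ± 1.33 in AngII+GAS (log2 fold change 0.14, SE 0.19). Ace, the enzyme that makes angiotensin II, was 74.6 ± 9.72, 115 ± 20.1 and 97.2 ± 30.7 FPKM (0.33, SE 0.21). Enpep, an aminopeptidase that degrades angiotensin II, was 10.4 ± 2.60 FPKM in Control and 14.4 ± 4.67 in AngII+GAS (0.41, SE 0.21).

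No contractile gene was called. In the smooth muscle list 19 of 25 genes were lower in AngII+GAS than in Control (76%, beside 61.7% of all genes tested). The median was -0.25, and -0.44 to -0.058 with 1 library left out. At an unadjusted p under 0.05 in limma, 1 of the 25, Flna, was lower, beside 3.3% of all genes tested. Acta2, smooth muscle actin, was 1770, 3342, 3091 and 3037 FPKM in 4 AngII+GAS libraries and 7433 FPKM in AngII+GAS 5, against 3083 to 5585 FPKM in Control (-0.25, SE 0.35). Myh11, the smooth muscle myosin heavy chain, was 530 ± 82.2 FPKM in Control and 490 ± 216 in AngII+GAS (-0.19, SE 0.26). Mylk, the kinase that starts contraction, differed by 0.07 (SE 0.22), a sign that turned in 5 alternative fits. Channels for calcium and potassium had a median of -0.08 with 9 of 15 genes lower (60%, beside 61.7% of all genes tested).

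Nitric oxide relaxes this muscle through soluble guanylate cyclase, a dimer of the products of Gucy1a1 and Gucy1b1. Gucy1a1 was 36.7, 31.9, 37.7, 26.9 and 40.1 FPKM in Control and 19.0, 21.9, 24.8, 19.0 and 30.1 FPKM in AngII+GAS, with 36.8 ± 9.81 in AngII. Only AngII+GAS 5 reached the Control range (log2 fold change -0.58, SE 0.16, adjusted p = 0.669). Gucy1b1 was 37.1 ± 7.47 FPKM in Control and 24.4 ± 10.4 in AngII+GAS (-0.65, SE 0.25, adjusted p = 0.993), and again AngII+GAS 5 was the highest of its group, at 41.8 FPKM. Nos3, the endothelial nitric oxide synthase, was 2.07 ± 0.71 FPKM in Control and 2.95 ± 2.09 in AngII+GAS (0.27, SE 0.29), and the sign rests on AngII+GAS 2. The endothelial marker list had a median of -0.05, equal to that of all genes.

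Nuclear genes of oxidative phosphorylation and fatty acid oxidation were split between the AngII+GAS libraries. Oxidative phosphorylation had 36 of 40 genes lower than Control (90%, beside 61.7% of all genes tested). Its median was -0.12, beside -0.47 for AngII against Control. Fatty acid oxidation had 20 of 27 lower (74.1%) with a median of -0.11, beside -0.71. The mean log2 level of the oxidative phosphorylation list was 6.83 and 6.73 in AngII+GAS 2 and 5, below the Control range of 7.16 to 7.76, and 7.61 to 7.99 in the other 3. That of the fatty acid list was 5.61 and 5.41 in the same 2 libraries and 6.29 to 6.85 in the other 3, against 6.06 to 6.52 in Control. With 1 library left out the medians were -0.27 to 0.049 and -0.29 to 0.073, and without AngII+GAS 2 and 5 they were 0.31 and 0.36. No gene of either list was called. In AngII+GAS against Control, 0 of 40 and 1 of 27 were at an unadjusted p under 0.05, beside 4.76% of all genes tested. Brown adipocyte genes had a median of 0.08 (-0.095 to 0.35 with 1 library left out), beside -0.57, and Ucp1, the uncoupling protein of brown fat, was 1665 ± 733 FPKM in Control, 1136 ± 606 in AngII and 2296 ± 1134 in AngII+GAS (0.46, SE 0.50). Adipocyte RNA was thus part of these samples: the summed level of the brown adipocyte list was 1468 to 4263 FPKM in Control and 1486 to 6219 FPKM in AngII+GAS. The part of fat content in the values of the mitochondrial lists was not tested.

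The listed annotated transcripts of the mitochondrial genome gave 20.2% ± 1.40 of the listed FPKM in Control and 20.7% ± 4.87 in AngII+GAS. In AngII they gave 14.97% ± 4.27. This share is a partial sum, since 10 of the 13 protein-coding mitochondrial genes were listed for both groups. Of these, mt-Nd4 had 0.215 to 0.251 FPKM in the Control libraries, beside 32540 to 41280 FPKM for mt-Co1. The difference between AngII+GAS and Control was 0.482 percentage points (exact two-sided permutation test, n = 5 against 5, p = 0.857, with 0.0079 the smallest p possible). AngII+GAS spanned 13.6% to 25.2%, wider than Control (18.8% to 21.7%). Single mitochondrial genes had values that jumped between libraries. Cytochrome b (mt-Cytb) was at 1.69 FPKM in AngII+GAS 1 and 3.65 FPKM in AngII 3, whereas the 4 remaining AngII+GAS libraries had 13575 to 46293 FPKM. Without mt-Cytb, mt-Nd4 and mt-Co3, whose values jump in this manner, the shares were 15.45% ± 0.97 in Control and 15.6% ± 3.28 in AngII+GAS. Hspd1, whose product works in mitochondria, was 26.0 FPKM in AngII+GAS 2, where the full share was highest (25.2%, with mt-Cytb at 46293 FPKM). It was 36.5 FPKM in AngII+GAS 5, where that share was lowest (13.6%). In AngII+GAS 1, 3 and 4 Hspd1 was 36.6, 32.1 and 37.5 FPKM, at shares of 17.98%, 22.1% and 24.6%. The highest Hspd1 value of the group, in AngII+GAS 4, thus went with a share near the highest. A relation between Hspd1 and the share was not tested.

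Immune lists held no called gene. Of the interferon response genes, 19 of 20 were lower in AngII+GAS than in Control (95%, beside 61.7% of all genes tested). Their median was -0.46, beside 0.04 for AngII against Control. At an unadjusted p under 0.05 in limma, 3 of the 20 were lower and 0 higher, beside 3.3% and 1.46% of all genes tested. Psmb8, an immunoproteasome subunit, was 12.7 ± 5.66 FPKM in Control and 6.02 ± 3.27 in AngII+GAS (log2 fold change -1.07, SE 0.45, adjusted p = 0.993), and Gbp3, an interferon-induced GTPase, was 6.36 ± 4.41 and 2.72 ± 0.22 FPKM. The mean log2 level of the list overlapped between the groups, at 2.46 to 3.48 in Control and 2.04 to 2.71 in AngII+GAS. Macrophage markers had a median of 0.09 (16 of 19 higher), which was -0.17 without AngII+GAS 2 and 5. That of MHC class II and dendritic cell genes was -0.18 (7 of 7 lower), and -0.42 to 0.013 with 1 library left out. Lymphocyte genes had a median of -0.51 (7 of 8 lower), and Control was split. The B cell gene Cd79a was 8.19, 1.10, 1.34, 6.07 and 11.8 FPKM in Control, and 0.730 to 2.57 FPKM in AngII+GAS. Ribosomal protein genes were lower in 23 of 24 cases (95.8%, beside 61.7% of all genes tested) with a median of -0.19. None was at an unadjusted p under 0.05. Complement genes had a median of -0.10, beside 0.35 for AngII against Control. Masp1, a serine protease that starts the lectin arm of complement, did not pass the filter on low values, with 0.735 ± 0.120 FPKM in Control, 2.11 ± 0.578 in AngII and 0.817 ± 0.418 in AngII+GAS.

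Genes under hormonal and daily control were also listed. Glucocorticoid response genes were higher in 11 of 14 cases with a median of 0.24, beside 0.49 for AngII against Control. Fkbp5, a glucocorticoid-induced cochaperone of the steroid receptor, was 10.8 ± 3.52 FPKM in Control, 20.9 ± 6.52 in AngII and 21.7 ± 6.82 in AngII+GAS (log2 fold change 0.94, SE 0.26, adjusted p = 0.676). Hsd11b1, which regenerates active glucocorticoid in cells, was 30.3 ± 21.8 FPKM in Control and 63.5 ± 18.5 in AngII+GAS (1.39, SE 0.57, adjusted p = 0.993). Clock genes were higher in 9 of 15 cases and lower in 6, with a median of 0.03, beside 0.05 for AngII against Control. Among them Nr1d1, a nuclear receptor of the clock, was 48.6 ± 23.6, 20.3 ± 9.03 and 81.7 ± 34.3 FPKM in Control, AngII and AngII+GAS (0.73, SE 0.42). Cry1, a clock repressor, was 4.10 ± 0.63, 3.85 ± 0.55 and 2.29 ± 0.91 FPKM (-0.66, SE 0.18, adjusted p = 0.676). The time of day of sampling is not given in the sources used here.

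Markers of tissues around the vessel varied widely between libraries. Skeletal muscle genes had a median of -1.14 (10 of 11 lower), which turned to 1.22 without Control 1 and 2, and their summed level ranged from 45.1 to 5184 FPKM in Control and from 35.2 to 416 FPKM in AngII+GAS. Myl1, a fast muscle myosin light chain, was 109 and 213 FPKM in Control 1 and 2 and 11.8 to 14.8 FPKM in the other Control libraries, and its log2 fold change of -1.19 (SE 0.86) turned to 0.18 without those 2. Schwann cell and myelin genes had a median of -0.08, beside 0.96 for AngII against Control. Of 23 neuron genes 2 were tested, with a summed level over the list of 22.2 to 141 FPKM in Control, 21.2 to 1762 FPKM in AngII and 37.0 to 195 FPKM in AngII+GAS. Adventitial fibroblast genes had a median of 0.13 (-0.16 without AngII+GAS 2 and 5), beside 0.54, and Clec3b, a fibroblast-secreted plasminogen-binding lectin, was 117 ± 24.9 FPKM in Control and 82.2 ± 19.6 in AngII+GAS (log2 fold change -0.52, SE 0.20, adjusted p = 0.993). Of 7 tested neutrophil and mast cell genes 3 were higher and 4 lower (57.1%, beside 61.7% of all genes tested), with a median of -0.07. Tpsb2, a mast cell tryptase, was 1.06 ± 0.59 FPKM in Control, 2.43 ± 1.58 in AngII and 6.10 ± 3.46 in AngII+GAS (1.58, SE 0.48, adjusted p = 0.823). AngII+GAS 5, at 0.540 FPKM, lay within the Control range of 0.289 to 1.85 FPKM. Without that library Tpsb2 passed the threshold (2.07, adjusted p = 0.0459). Kit, the receptor of the mast cell growth factor, was 4.36 ± 0.93 FPKM in Control and 2.72 ± 0.81 in AngII+GAS (-0.53, SE 0.18, adjusted p = 0.903).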

How the data were processed

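Total RNA of the abdominal aorta was sequenced after depletion of ribosomal RNA, per the labels' protocols, with a NEBNext library kit that keeps no strand information. Antisense or overlapping neighbours and near-identical paralogs are for that reason uncertain. The authors deposited FPKM values per transcript, both for Ensembl transcripts and for ones they assembled. No header names the unit, which was taken from the values. Build mm10 and limma are named per the submitters' processing notes, whereas the aligner, assembler and quantifier are not given in the sources used here.

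Transcript lists differ between groups. On testing, all 42860 Control transcripts (the list AngII shares) and all 42610 AngII+GAS transcripts had a mean of at least 0.5 FPKM in their own group or in AngII. Of 40544 transcripts listed for both, 28500 were Ensembl transcripts, 28472 matched GENCODE M21 and were summed to 14489 genes, and 12044 were assembled. Assembled transcripts took 9.95% to 13.2% of the FPKM of the 10 libraries. They, and 2316 transcripts listed for Control only and 2066 for AngII+GAS only, do not enter the sums. Depth was read from low values, 99% to 99.5% of which were whole reads within 0.1.

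The test covered 11744 genes that reached 1 FPKM in 5 or more of the 10 libraries. Log2(FPKM + 1) was fitted with limma 3.58.1 (eBayes with trend and robust, 8 residual and 2.32 prior degrees of freedom) in R 4.3.3, two-sided, with Benjamini-Hochberg adjustment and a threshold of 0.05. Fold changes on this scale understate those of low genes. AngII comparisons came from a fit over 15 libraries. In data simulated for AngII+GAS against Control on 11744 genes, 63% of 100 log2 changes of 1 and 95% of 100 changes of 2 were recovered, with 6 false calls. Changes were placed in genes with a Control mean log2 level above 2. Values were drawn independently, with 1 SD per gene for both groups. In the real libraries the median SD over genes was 0.242 in Control and 0.341 in AngII+GAS, and genes moved together. These rates are therefore not the power of the real comparison. Tables and plots used Python 3.11.15, pandas 2.3.3, scipy 1.17.1 and matplotlib 3.10.9.

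The comparison, the 42 gene lists and the named genes were chosen with earlier results of these data known, and lists are described without a test. Named are called genes (up to 15 per direction, where ranges do not overlap and the higher group mean is at least 5 FPKM) or, with under 5 called, the 5 of a direction with the smallest p at that level, 14 genes always given, and per list up to 6 called members or else up to 2 with the smallest p. Some genes that this rule names are not reported here. Other names were chosen after their values were seen. Alternatives were another pseudocount, no filter, 2 other scalings, fits over 15 and 30 libraries, transcripts of either list, voom on read numbers worked out from FPKM and length, library weights, tissue scores as terms, and libraries left out.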

Additional observations from a re-analysis of the deposited data

Results flagged for a closer look

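Of 128 groups of 5 libraries checked for 1 library far from the others, 7 were picked out, and chance picks out about 1 in 20. In AngII+GAS 5, Fn1 was 629.9 FPKM (116 to 197 in the other 4 AngII+GAS libraries), Acta2 7433 FPKM (1770 to 3342) and Myh11 860.5 FPKM (294 to 443). The mean log2 level of the endoplasmic reticulum stress genes was 5.13 in the same library, against 4.63 to 4.76. In AngII+GAS 2, Nos3 was 6.63 FPKM, against 1.47 to 2.48 in the other 4. In Control 4, the mean log2 level of the smooth muscle contraction genes was 6.15, against 6.54 to 6.69 in the other Control libraries. In Control 5, that of the nitric oxide and cGMP genes was 3.71, against 3.54 to 3.58.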

How the results depend on the processing

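The count of genes called higher was 0 in the fits over 15 and over 30 libraries, and 2 with transcripts of either list, with library weights and without AngII+GAS 2 and 5. Leaving out 1 library gave 1 to 4 (4 without AngII+GAS 5, and 2 without Control 4, Control 5 or AngII+GAS 1). The count called lower was 2 with library weights, 0 with tissue scores as terms and without Control 1 and 2, and 3 without AngII+GAS 2 and 5. Leaving out 1 library gave 0 to 3 (0 without AngII+GAS 3, 3 without AngII+GAS 2, and 2 without Control 4, AngII+GAS 4 or AngII+GAS 5). Hspd1 was called in 20 of 23 fits and Slc30a5 in 21 of 23, apart from the sum with the assembled transcript. Genes at an unadjusted p under 0.05 went from 559 to 976 without AngII+GAS 5, to 977 with library weights and to 1139 without AngII+GAS 2 and 5. Leaving out AngII+GAS 2 and 5, adding the assembled transcript and leaving out 3 mitochondrial genes were chosen after seeing the data. No paired analysis was possible because the labels give no replicate numbers: the numbers used here follow the order of deposit, only name a library and tie no animals together.

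The difference in mitochondrial share was -0.637 to 2.25 percentage points with 1 library left out, and 0.115 without mt-Cytb, mt-Nd4 and mt-Co3. With 1 library left out, the log2 fold change spanned 0 for these uncalled genes: mt-Cytb (-3.35 to 0.17), Nos3 (-0.0026 to 0.40), Fn1 (-0.14 to 0.47), Krt19 (-0.46 to 0.026), Lrrn4 (-0.45 to 0.028), Cd209a (-0.33 to 0.013), H2-Ab1 (-0.47 to 0.0042) and Mylk (-0.10 to 0.21). Fn1 also turned with tissue scores (-0.027), without Control 1 and 2 (-0.088) and without AngII+GAS 2 and 5 (-0.048), and Mylk with library weights (-0.076), tissue scores (-0.067) and without AngII+GAS 2 and 5 (-0.19). Myl1 was 0.18 without Control 1 and 2, and Ndufs1 0.087, Krt19 0.093 and Lrrn4 0.085 without AngII+GAS 2 and 5. The cause was not tested. Over all alternatives, 903 list medians moved by less than 1 SD of the Control libraries and 43 by more. The sign of the median changed with 1 library left out in 24 of 42 lists (in 10 without AngII+GAS 5), in 18 without AngII+GAS 2 and 5 and in 7 without Control 1 and 2. Genes under 1 FPKM were not assessed.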
